A study of Mus musculus with 18 samples.

Results

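Day 1 after anterior cruciate ligament (ACL) rupture was examined by comparing mature miRNA levels in cartilage of the injured knee with those in the uninjured contralateral knee. The comparison rests on 6 of the 18 small RNA libraries of the series, 3 from injured and 3 from contralateral knees, and covers the 428 of 1412 listed miRNAs that passed a filter on low counts. The animals were male C57Bl/6J mice, 12 weeks old, with no engineered allele. A single load of 12 N on the flexed right knee ruptured the ligament, and the unloaded left knee of the same animals gave the contralateral group. Caps of femoral condyle cartilage were detached at the tidemark and pooled from several mice per library, and the sources differ on how many mice entered a pool. The other 12 libraries (3 injured and 3 contralateral at day 7, and 6 from naïve mice without any load) entered the fit to estimate the spread between libraries, and the day 7 groups also served for comparison. Which libraries came from the same mice is not given in the labels, so the p-values measure the spread between pooled libraries.

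A miRNA is a short RNA that guides the silencing complex to messenger RNAs, mainly through bases 2 to 8 at its 5′ end, the seed. Primary transcripts are cut to a hairpin and then to a duplex whose 5p and 3p arms can both be loaded, although usually 1 arm dominates. In cartilage miR-140, encoded within the gene for the ubiquitin ligase Wwp2, is the best known chondrocyte miRNA and sustains growth plate and joint cartilage, while miR-146a, miR-155 and miR-21a are known as products of inflammatory signalling in many cells. Because mature miRNAs are stable once loaded, their levels can lag behind the transcription of their genes.

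At day 1 no miRNA passed the test between injured and contralateral cartilage. With limma-voom 0 of 428 miRNAs (0%) passed an adjusted p of 0.05, and the smallest adjusted p was 0.997. edgeR's quasi-likelihood test and DESeq2 also called 0. At an unadjusted p under 0.05 limma-voom gave 8 miRNAs (1.87%), 3 higher (0.701%) and 5 lower (1.17%), edgeR 11 and DESeq2 9. Of the log2 fold changes, 209 of 428 (48.8%) were above 0. Levels are given throughout as CPM, read counts scaled to a common library size, after trimmed mean of M-values (TMM) scaling, and fold changes as log2 of injured over contralateral with their standard error (SE).

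The question left by a comparison without calls is how large a change the data leave room for. The 95% interval of the log2 fold change lay wholly within 2-fold in either direction for 194 miRNAs (45.3%) and within 1.5-fold for 23 (5.37%). Among the 75 miRNAs that averaged 1000 CPM or more over the 6 libraries, here called abundant, 59 (78.7%) were bounded within 2-fold, 17 within 1.5-fold and 73 within 3-fold. miR-199a-3p and miR-199b-3p carry the same counts, as do miR-486a-5p and miR-486b-5p, yet each is counted separately. miR-3074-5p, the reverse complement of miR-24-3p over 20 bases, is also counted. The following mature sequences, from RefSeq with build GRCm38.p6, are shown because 6 of the 17 miRNAs bounded within 1.5-fold share the let-7 seed GAGGUAG, given in capitals. let-7j, also among the 17, carries the seed GAGGUAU and is counted apart from that family. Apart from the last base of the seed and added bases at its 3′ end, its sequence is that of let-7i-5p. Whether reads of let-7i-5p were counted as let-7j was not tested. let-7g-5p is included as a family member whose interval reached 1.52-fold lower.

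let-7i-5p: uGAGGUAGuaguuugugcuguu
let-7f-5p: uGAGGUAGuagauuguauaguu
let-7c-5p: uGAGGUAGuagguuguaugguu
let-7g-5p: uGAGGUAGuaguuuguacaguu
let-7a-5p: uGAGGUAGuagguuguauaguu
let-7d-5p: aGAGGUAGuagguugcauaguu
let-7e-5p: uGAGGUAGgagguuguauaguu
let-7j: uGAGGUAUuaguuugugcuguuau
miR-10a-5p: uACCCUGUagauccgaauuugug
miR-10b-5p: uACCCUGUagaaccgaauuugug

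A mature sequence was found for all but 63 of the 428 tested miRNAs. The 8 let-7 5p sequences of 22 bases differ from each other at 1 to 6 positions, and 4 of their 28 pairs differ at 1 position. Reads could therefore be divided between members by the alignment, and the level of the seed family is the safer quantity. Summed over its 9 tested members, which include miR-98-5p, the seed GAGGUAG reached 179668, 177280 and 174624 CPM in the injured libraries. The contralateral libraries held 189366, 164722 and 182103 CPM, a ratio of means of 0.991. The 3 injured values lay inside the contralateral range. let-7 restrains proliferation genes in differentiated cells and is abundant in most adult tissues.

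Single members were bounded almost as closely. let-7i-5p, encoded at chr10:122985640-122985724 on the minus strand, was measured at 51455, 58641 and 46374 CPM in injured cartilage. Contralateral cartilage gave 56573, 45863 and 55059 CPM, a log2 fold change of -0.01 (SE 0.18). Its interval ran from 0.76-fold to 1.30-fold. The closest bound of all abundant miRNAs belonged to miR-30d-5p, with 7232, 8253 and 7759 CPM in injured and 7704, 7933 and 7657 CPM in contralateral libraries and no change beyond 1.28-fold inside its interval. With intervals widened by Bonferroni adjustment so that all 428 hold together at 95%, let-7i-5p, let-7a-5p, miR-10a-5p and miR-30d-5p remained within 2-fold (0.935% of those tested), and 36 of the 75 abundant miRNAs remained within 3-fold. An equivalence test with the margin set at 2-fold passed for 186 miRNAs (43.5%), of which 55 were abundant. It used one-sided tests against both ends of the margin, with Benjamini-Hochberg adjustment over all 428. With a margin of 1.5-fold 0 of 428 passed (0%).

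**Figure D1:**
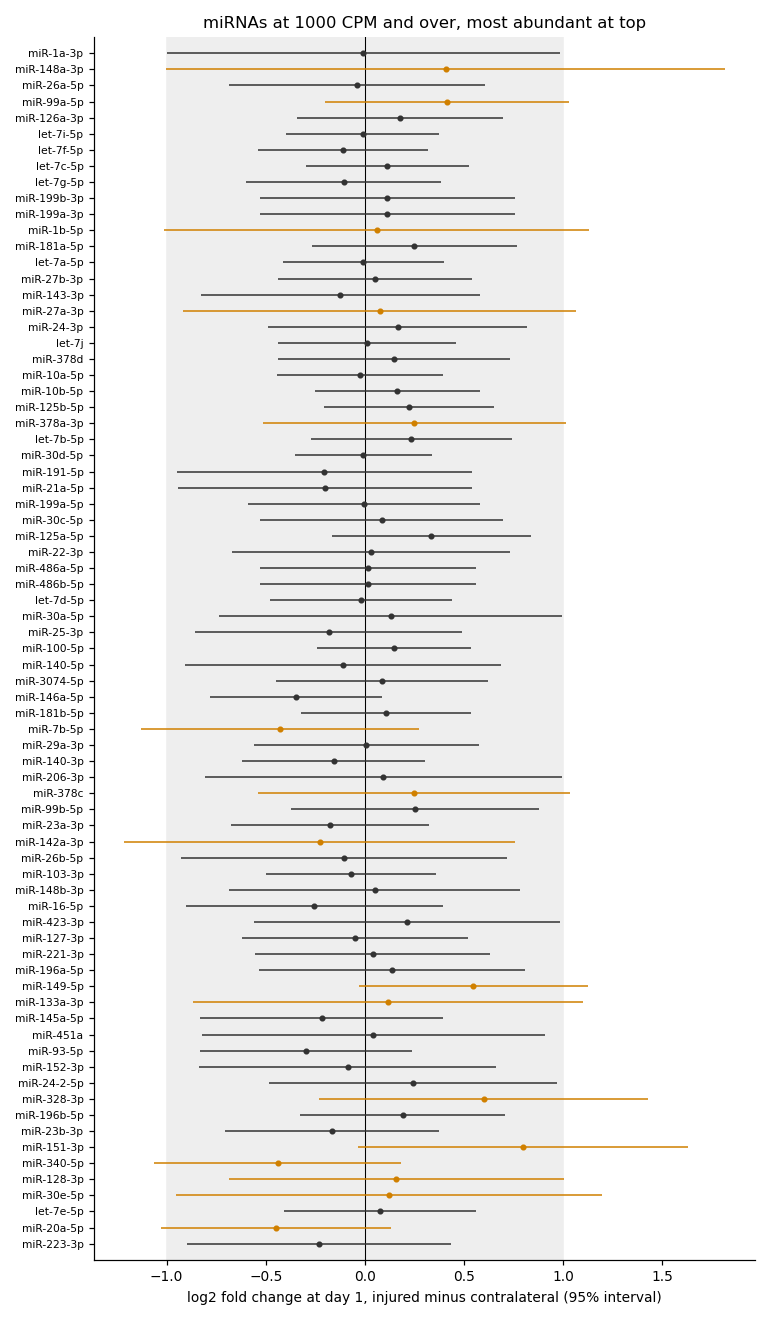
The 75 miRNAs at 1000 CPM and over, ordered by mean level on the vertical axis, with the day 1 log2 fold change (points) and its 95% interval (lines) on the horizontal axis. The grey band marks 2-fold in either direction, 59 intervals lie inside it, and the 16 that leave it are drawn in orange.

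Precision followed abundance. The margin, the distance from the estimate to either end of its 95% interval, had a median of 2.19-fold for the 99 miRNAs under 10 CPM, 1.70-fold for the 159 between 10 and 100 CPM, 1.61-fold for the 95 between 100 and 1000 CPM and 1.53-fold for the 75 above that. The share bounded within 2-fold rose accordingly from 7.07% through 44.7% and 60% to 78.7%. Absolute log2 fold changes had a median of 0.32 in the lowest band and 0.13 among the abundant miRNAs. In the 6 libraries 10 CPM corresponded to between 11.9 and 27.5 reads.

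**Figure D2:**
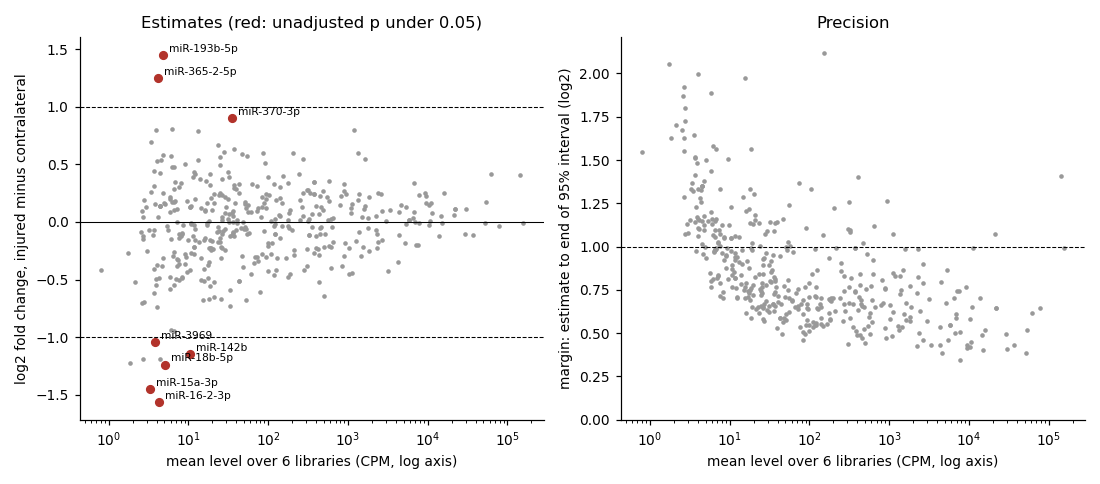
Left, the day 1 log2 fold change of each of the 428 miRNAs against its mean level over 6 libraries in CPM (log axis), with the 8 miRNAs at an unadjusted p under 0.05 in red and dashed lines at 2-fold. Right, the margin of the 95% interval on the log2 scale against the same level. The red points all lie under 100 CPM, and the margins narrow from left to right.

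Abundance alone did not secure a narrow bound. The next sequences are those of the most abundant miRNAs outside let-7 for which a sequence was found, shown because their libraries ranged from steady to widely spread.

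miR-148a-3p: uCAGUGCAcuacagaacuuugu
miR-26a-5p: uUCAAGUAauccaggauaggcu
miR-99a-5p: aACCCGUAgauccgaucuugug
miR-126a-3p: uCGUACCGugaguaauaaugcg
miR-199a-3p: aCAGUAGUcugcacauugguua

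miR-148a-3p, which lies outside any other annotated gene at chr6:51269812-51269910, was the second most abundant. Injured libraries held 146829, 61026 and 271387 CPM. Contralateral libraries held 77228, 245026 and 54970 CPM, so both groups spanned a wide range and overlapped fully. Its log2 fold change was 0.41 (SE 0.67) and its interval extended to 3.52-fold higher, the widest bound among the abundant miRNAs. On the log2 scale this limit of 1.82 became 2.51 without contralateral replicate 2. miR-99a-5p, from an intron of the non-coding gene Mir99ahg on chromosome 16, measured 61226, 54319 and 95259 CPM against 44666, 72685 and 41103 CPM. That gave a log2 fold change of 0.41 (SE 0.30), with an upper bound of 2.04-fold. miR-26a-5p was steadier, at 85147, 70047 and 76620 CPM in injured and 93501, 73398 and 72536 CPM in contralateral cartilage, and its interval ended at 1.61-fold lower and 1.52-fold higher. The endothelial miR-126a-3p, encoded within Egfl7, measured 58723, 42612 and 70871 CPM against 51425, 57143 and 41974 CPM, with no change beyond 1.62-fold in its interval. Of the 16 abundant miRNAs whose intervals reached past 2-fold, 12 did so on the upper side and 6 on the lower, miR-148a-3p and miR-1b-5p on both. miR-1b-5p was at 24289, 7086 and 38734 CPM against 20943, 24778 and 11736 CPM, and whether its reads can be told from those of the miR-1a hairpins was not tested.

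**Figure D3:**
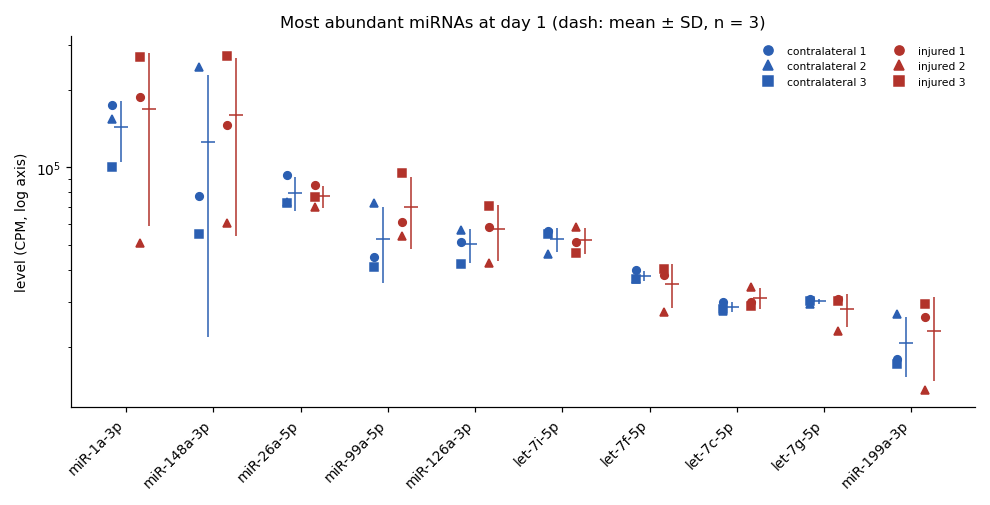
Levels in CPM (log axis) of the 10 most abundant miRNAs in the 3 contralateral (blue) and 3 injured (red) day 1 libraries, with symbols for the replicates and dashes with bars for mean ± SD. Injured replicate 2 is the lowest injured library for miR-1a-3p, miR-148a-3p and miR-199a-3p, while the let-7 members lie close together.

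The composition of the libraries moved with this spread. Total counts ranged from 946624 to 3172635 in the 6 day 1 libraries, and injured replicate 2 was the shallowest. It also stood apart on the main axis of variation between the 6 libraries, which held 52.7% of the variance. The distance between libraries (in log2 units, summed over miRNAs as a root of squares) averaged 13.9 between injured and contralateral libraries, 12.7 among contralateral and 16.9 among injured libraries. Injured replicate 2 lay 18.9 and 20.7 from the other injured libraries, which lay 11.1 apart. The skeletal muscle list (miR-1a, miR-1b, miR-133, miR-206, miR-208 and miR-499) summed to 216662, 62208 and 313609 CPM in injured and 200851, 184900 and 115848 CPM in contralateral cartilage. Of its 14 members 8 were tested and miR-208a-3p was at 0 in all 6 libraries. Across the 6 libraries this list ranged from 62208 to 313609 CPM, against 6004 to 8252 CPM for the cartilage list. miR-1a-3p alone ranged from 50883 to 268001 CPM in injured and from 100105 to 174696 CPM in contralateral libraries, and its interval ended just inside 2-fold on both sides. With the summed muscle level as a covariate, an alternative chosen after the data were seen, 0 miRNAs were called and 65 of the 75 abundant miRNAs were bounded within 2-fold. The 75 include miR-1a-3p, miR-1b-5p, miR-133a-3p and miR-206-3p, which are themselves part of that sum. Narrower intervals for these under the covariate are therefore partly built in. Beyond this fit the part of muscle RNA in the spread was not tested. In pooled tissue such as this, fewer cells of a type and less RNA per cell cannot be told apart.

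The cartilage list gave no difference at day 1. miR-140-5p, the arm most studied in chondrocytes, measured 5635, 2760 and 4516 CPM in injured and 5437, 4093 and 4053 CPM in contralateral cartilage, and its log2 fold change of -0.11 (SE 0.38) had an interval from 0.533-fold to 1.61-fold. The 3p arm from the same hairpin (chr8:107551244-107551313, in Wwp2) measured 2328, 3014 and 2336 CPM against 2595, 3057 and 2831 CPM, with no change beyond 1.54-fold in its interval. The groups overlapped for both arms. miR-455-5p and miR-455-3p, from the other hairpin on this list, had log2 fold changes of -0.31 (SE 0.31) and 0.33 (SE 0.47). Summed, the 4 members reached 7109 ± 1101 CPM in injured and 7603 ± 586 CPM in contralateral libraries (SD, n = 3 each; exact permutation p = 0.5, where 0.1 is the smallest that 3 against 3 can give).

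Lists of miRNAs known to be induced by particular signals were described in the same way, since an early response might be sought there. None of their members was called. The NF-kB list holds miR-146a-5p and miR-146b-5p, which repress the adaptors Traf6 and Irak1 in a negative feedback, with miR-155-5p, miR-147-3p, miR-9-5p and miR-21a-5p. All 6 log2 fold changes were below 0, with a median of -0.19 against -0.01 over all 428 miRNAs, and all 6 stayed below 0 under each scaling tried. The summed level was 11429 ± 1705 CPM in injured and 13448 ± 1411 CPM in contralateral cartilage (SD, n = 3 each; exact permutation p = 0.2). The sequences of its main members are shown because 5 of the 6 intervals lay within 2-fold.

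miR-146a-5p: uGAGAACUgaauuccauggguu
miR-146b-5p: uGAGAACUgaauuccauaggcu
miR-155-5p: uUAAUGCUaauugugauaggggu
miR-21a-5p: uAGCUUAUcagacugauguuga

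miR-146a-5p measured 3450, 4134 and 3786 CPM in injured and 4385, 5178 and 4859 CPM in contralateral cartilage. Every injured library was below every contralateral library. The log2 fold change was -0.35 (SE 0.21, unadjusted p = 0.109, adjusted p = 0.997 by limma-voom), and the interval ran from 0.583-fold to 1.06-fold. Naïve cartilage held 3971 ± 661 CPM (SD, n = 6). miR-146b-5p, which shares its seed, measured 901, 872 and 617 CPM against 1122, 846 and 940 CPM, with overlap. miR-155-5p, a product of activated leukocytes and macrophages, was at 132, 132 and 89.4 CPM in injured and 99.1, 126 and 155 CPM in contralateral libraries, and its interval ended at 1.58-fold higher.

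CREB and growth factor induced miRNAs (miR-132, miR-212, miR-221 and miR-222) were split, with 4 of 6 above 0 and a median of 0.04, but with 4 of 6 below 0 when scaled by library totals only. The largest value was that of miR-212-5p, at 31.9, 39.4 and 19.4 CPM in injured and 14.8, 22.2 and 21.4 CPM in contralateral cartilage, a log2 fold change of 0.56 (SE 0.31, unadjusted p = 0.088, adjusted p = 0.997 by limma-voom). Its groups overlapped. Among the tested p53 and hypoxia induced miRNAs (of miR-34a, miR-34b, miR-34c, miR-192, miR-194 and miR-210) 7 of 8 lay below 0 (median -0.27). miR-210-3p, the best known target of hypoxia-inducible factor, was the exception at 0.07 (SE 0.38), though below 0 like the rest when scaled by library totals only, with 35.0, 29.3 and 34.5 CPM against 30.6, 33.8 and 30.2 CPM. miR-34a-5p, a direct p53 target, measured 20.4, 10.1 and 20.9 CPM against 12.8, 28.4 and 20.1 CPM. The list summed to 440 ± 39.4 CPM in injured and 492 ± 15.2 CPM in contralateral libraries (SD, n = 3 each) without overlap, and the exact permutation p of 0.1 is the smallest this design allows. Adjusted over the 12 lists it was 0.982. The highest injured sum was 475.8 CPM and the lowest contralateral sum 477.1 CPM. Its most abundant tested members were miR-194-5p and miR-192-5p, at 179 and 166 CPM over the 6 libraries. Of these miR-192-5p was lower without overlap, with a log2 fold change of -0.31 (SE 0.26).

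Load-responsive miRNAs of cartilage (miR-21a, miR-27, miR-31, miR-103, miR-146a, miR-199a, miR-221, miR-222 and miR-365) divided evenly, 6 above and 6 below 0 (11 of 12 below with library totals only), and 10 of 12 were bounded within 2-fold. miR-27b-3p measured 16310, 10875 and 17849 CPM against 13179, 16943 and 12797 CPM, and its interval did not extend beyond 1.46-fold. The matrix list of miR-29, which represses collagen genes, had a median of 0.01 over 5 tested members, of which 1, miR-29a-3p, was bounded within 2-fold (at 1.49-fold). The other 4 intervals reached between 2.22-fold and 2.90-fold. The markers of other cells were also without calls. Those of white blood cells, among them miR-150, miR-223 and miR-142a, were below 0 in 6 of 7 cases with a median of -0.23. The exception was the scarce miR-150-3p at 0.80 (SE 0.96), with a mean of 3.98 CPM. The list summed to 5215, 4017 and 3967 CPM in injured and 5350, 4780 and 4829 CPM in contralateral libraries, with overlap (exact permutation p = 0.3). Erythroid and vascular lists had medians of -0.04 and -0.08, while their summed levels were 1.02 and 1.08 times those of contralateral cartilage, so the median and the sum differed in sign.

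**Figure D4:**
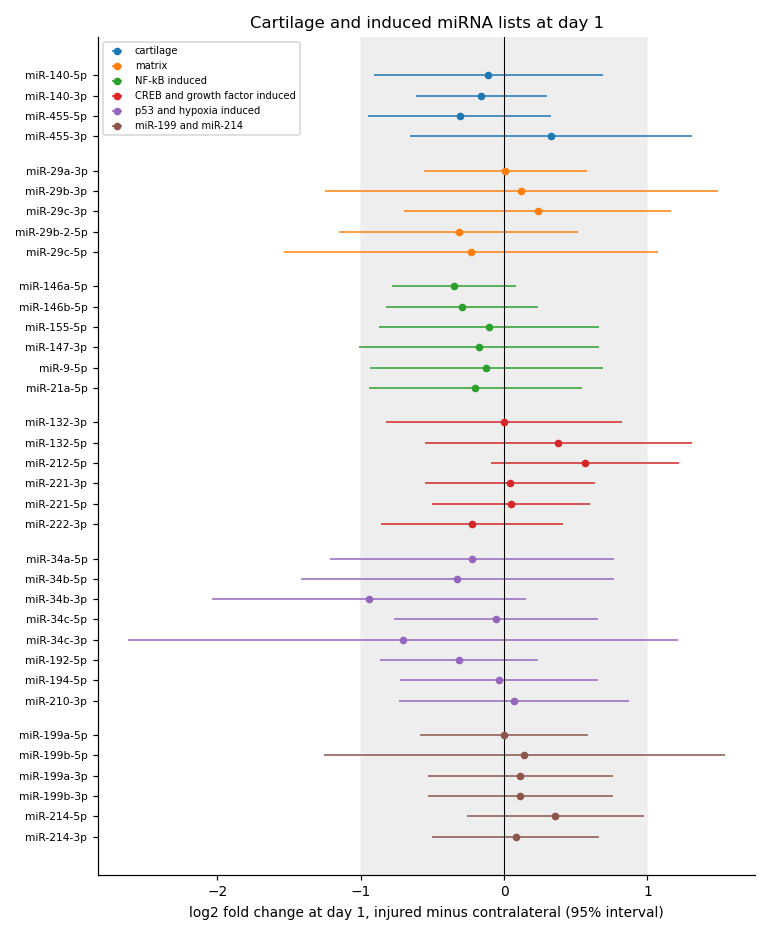
Day 1 log2 fold changes (points) with 95% intervals (lines) for the tested members of 6 lists, coloured by list, with 2-fold in either direction shaded. All intervals cross 0, and the members of the NF-kB list all lie to the left of 0.

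Against this background 37 miRNAs (8.64%) had injured and contralateral libraries that did not overlap, 10 of them higher (2.34%) and 27 lower (6.31%) after injury. With 3 against 3, full separation has a probability of 0.1 when the labels carry no information, so this share is no excess. Of the 37, 6 were abundant (8% of the abundant miRNAs). miR-125b-5p and miR-125a-5p were higher, at 10319, 11280 and 9272 CPM against 9144, 8077 and 9188 CPM and at 7148, 8027 and 6991 CPM against 6828, 4940 and 5937 CPM. They are encoded apart (miR-125a in Spaca6 on chromosome 17) yet share the seed CCCUGAG, and that seed family as a whole summed to 17959 ± 1576 CPM in injured and 14957 ± 1506 CPM in contralateral libraries (SD, n = 3 each). The log2 fold changes were 0.22 (SE 0.21) and 0.33 (SE 0.24), with adjusted p of 0.997 by limma-voom.

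miR-125b-5p: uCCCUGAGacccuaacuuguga
miR-125a-5p: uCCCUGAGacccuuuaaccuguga
miR-149-5p: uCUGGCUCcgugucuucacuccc
miR-340-5p: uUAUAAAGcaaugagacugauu
miR-20a-5p: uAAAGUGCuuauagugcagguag

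These sequences belong to the abundant miRNAs without overlap besides miR-146a-5p. miR-149-5p, from an intron of the glypican gene Gpc1, was higher at 1431, 2159 and 2297 CPM against 1407, 1239 and 1300 CPM. Its log2 fold change was 0.55 (SE 0.28, unadjusted p = 0.0623, adjusted p = 0.997 by limma-voom). miR-340-5p was lower at 1159, 816 and 912 CPM against 1304, 1246 and 1340 CPM, a log2 fold change of -0.44 (SE 0.30). The largest estimates among abundant miRNAs, 0.80 (SE 0.40) for miR-151-3p and 0.60 (SE 0.40) for miR-328-3p, came with overlapping groups and with intervals up to 3.09-fold and 2.69-fold. Injured replicate 3 held the highest value of both, and without it their log2 fold changes were 0.45 and 0.26.

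The 8 miRNAs at an unadjusted p under 0.05 were all scarce, which their read counts show. At 1.87% of those tested, they are fewer than this threshold would pass if no miRNA differed. None of the following had an adjusted p under 0.997, and all 8 belong to the 37 without overlap.

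miR-370-3p: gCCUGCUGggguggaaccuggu
miR-193b-5p: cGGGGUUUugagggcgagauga
miR-365-2-5p: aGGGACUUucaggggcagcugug
miR-18b-5p: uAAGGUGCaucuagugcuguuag
miR-16-2-3p: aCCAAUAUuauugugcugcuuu
miR-15a-3p: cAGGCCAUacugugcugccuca
miR-142b: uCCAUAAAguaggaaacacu
miR-3969: cCCUAAAGuagaaaucacua

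miR-370-3p, from an intron of the maternally expressed Rian transcript (chr12:109618258-109618336), had the smallest p. It was measured at 32.4, 52.8 and 54.9 CPM (62, 63 and 113 reads) in injured and 25.6, 25.5 and 20.8 CPM (52, 70 and 31 reads) in contralateral cartilage. The log2 fold change of 0.91 (SE 0.32, unadjusted p = 0.0108) had an interval from 1.18-fold to 2.98-fold before adjustment for the number of miRNAs. Naïve cartilage held 34.3 ± 8.57 CPM (SD, n = 6), between the day 1 groups. The other higher miRNAs, miR-193b-5p and miR-365-2-5p, are passenger arms read 2 to 23 and 3 to 12 times per library. Their log2 fold changes were 1.45 (SE 0.56) and 1.25 (SE 0.55). miR-193b and miR-365-1 share a cluster on chromosome 16, and miR-365-2 lies in a related cluster on chromosome 11. Chosen after these values were seen, the 6 tested arms of the miR-193 and miR-365 clusters were all above 0 (median 0.53) with TMM or DESeq2 scaling and 5 of 6 with library totals only or with the muscle list left out. Of the opposite arms, miR-365-3p was at 199, 158 and 173 CPM against 154, 171 and 200 CPM, and miR-193b-3p had a log2 fold change of 0.21 (SE 0.46).

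miR-18b-5p, miR-16-2-3p, miR-15a-3p, miR-142b and miR-3969 were the lower 5. miR-18b-5p had 4, 5 and 6 reads in injured and 14, 20 and 11 reads in contralateral libraries, or 2.09, 4.19 and 2.92 CPM against 6.90, 7.28 and 7.37 CPM. Its log2 fold change was -1.24 (SE 0.45, unadjusted p = 0.012). miR-16-2-3p (5, 3 and 2 against 7, 22 and 12 reads) and miR-15a-3p (1, 2 and 7 against 8, 15 and 7 reads) are passenger arms of the miR-15/16 family, which restrains the cell cycle. miR-142b reads need caution, because its sequence is the reverse complement of miR-142a-3p over 20 bases, its hairpin lies antisense in the host of that leukocyte miRNA, and how the alignment treated strand is not given in the sources used here.

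miR-20a belongs to the miR-17/92 cluster, in the host transcript Mir17hg, and miR-18b to a related cluster on chromosome X. These clusters promote proliferation and are activated by Myc and E2F. Chosen after the values were seen and therefore given without a test, 18 of the 19 tested arms of miR-17/92 and its paralogues had log2 fold changes below 0, with a median of -0.45 and a range from -1.24 to 0.18. The corresponding split over all 428 was 219 below and 209 above 0. In 6 of the 19 the libraries did not overlap, all lower in injured cartilage, against 27 of all 428 (6.31%) lower without overlap. Only miR-18b-5p had an unadjusted p under 0.05. Arms of a cluster share a transcript and all were measured in the same 6 libraries, so they are not independent. The most abundant of them were miR-25-3p, at 4149, 6231 and 4328 CPM in injured and 5033, 5545 and 5787 CPM in contralateral cartilage, miR-93-5p (log2 fold change -0.30, SE 0.26) and miR-20a-5p. miR-20a-5p measured 955, 850 and 814 CPM against 1047, 1214 and 1325 CPM, a log2 fold change of -0.45 (SE 0.28) with an interval from -1.03 to 0.13. Of the miR-15/16 family, also chosen after the values were seen, 7 of 10 arms were below 0 (median -0.34). Among them were the dominant miR-16-5p at -0.26 (SE 0.31) and the arms miR-16-2-3p and miR-15a-3p, already picked by their small p. The 3 above 0 were miR-195a-5p, miR-497a-5p and miR-195a-3p. In 5 of the 10 arms the libraries did not overlap, against 37 of all 428 (8.64%). Of these 5, 4 were lower in injured cartilage, among them miR-16-2-3p and miR-15a-3p. miR-195a-3p, at 0.60 (SE 0.37), was higher.

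Day 7 gave the scale for these bounds. With the same fit 63 of 428 miRNAs (14.7%) passed an adjusted p of 0.05 between injured and contralateral cartilage at day 7, of which 59 were higher (13.8%) and 4 lower (0.935%). The day 1 libraries share no sample with these. At day 1 the same 59 were spread evenly about 0, with 29 above and 30 below, a median log2 fold change of -0.00 and 31 bounded within 2-fold. Their day 7 median was 2.03. In 58 of the 59 the day 1 interval ended below the day 7 estimate, miR-212-5p being the exception. The 59 were picked by a high day 7 estimate in the same fit, and that estimate carries its own error. The count is therefore largely set by that choice and does not itself show a difference between the days. The change differed between the days for 29 miRNAs (6.78%) by an interaction term at an adjusted p of 0.05, in each case with a larger rise at day 7.

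miR-199a-5p: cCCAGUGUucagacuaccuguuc
miR-134-5p: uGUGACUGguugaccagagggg
miR-541-5p: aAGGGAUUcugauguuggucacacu
miR-335-3p: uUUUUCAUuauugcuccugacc
miR-31-5p: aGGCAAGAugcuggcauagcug

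These are shown as miRNAs that rose at day 7 and were tightly bounded, or scarce, at day 1. miR-199a-5p, cut from hairpins antisense to the dynamin genes Dnm2 and Dnm3, was at 7675, 6101 and 6784 CPM in injured and 7158, 6378 and 7079 CPM in contralateral cartilage at day 1, with an interval of the log2 fold change from -0.59 to 0.58. By day 7 it measured 17626 ± 3161 CPM against 6638 ± 3154 CPM (SD, n = 3 each; log2 fold change 1.52, adjusted p = 0.00041 by limma-voom). miR-21a-5p, encoded in an exon of Vmp1, was at 8263, 4357 and 7409 CPM against 6601, 8815 and 7057 CPM at day 1, and its interval ended at 1.45-fold higher. At day 7 its log2 fold change was 1.55 (adjusted p = 0.0024 by limma-voom). The abundant miRNAs called higher at day 7 were miR-199a-3p, miR-199b-3p (identical in sequence to the former and given the same counts), miR-21a-5p, miR-199a-5p, miR-127-3p and miR-152-3p, and all 6 were bounded within 2-fold at day 1.

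The imprinted cluster of chromosome 12 (12qF1), expressed from the maternal Meg3-Rian-Mirg transcripts, held 24 of the 59 miRNAs called higher at day 7, out of 27 tested members, whose median log2 fold change was then 2.03. At day 1 none of the 27 was called, 13 lay above and 14 below 0, and the median was -0.05. The whole list summed to 4508, 3907 and 4879 CPM in injured and 4608, 4061 and 4044 CPM in contralateral libraries (exact permutation p = 0.7). miR-134-5p was at 44.9, 47.7 and 42.8 CPM against 41.4, 49.9 and 49.6 CPM at day 1, bounded within 1.46-fold. It reached 229 ± 26.6 CPM against 43.2 ± 12.6 CPM at day 7. miR-541-5p gave 545, 467 and 451 CPM against 461, 362 and 429 CPM at day 1, a log2 fold change of 0.23 (SE 0.23). In 4 of the 27 the day 1 libraries did not overlap, with miR-370-3p, miR-433-3p and miR-543-3p higher and miR-410-3p lower. Over all 428 miRNAs this held for 37 (8.64%), 10 higher and 27 lower, so a count this small is not read as a result. Outside the cluster, miR-335-3p (within Mest, an imprinted gene of chromosome 6) was at 38.6, 30.2 and 37.9 CPM against 26.6, 33.8 and 44.2 CPM at day 1, and its log2 fold change went from 0.08 (SE 0.46) to 4.09 (SE 0.44) at day 7. miR-31-5p was scarce at day 1, between 4.37 and 8.88 CPM in the 6 libraries.

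**Figure D5:**
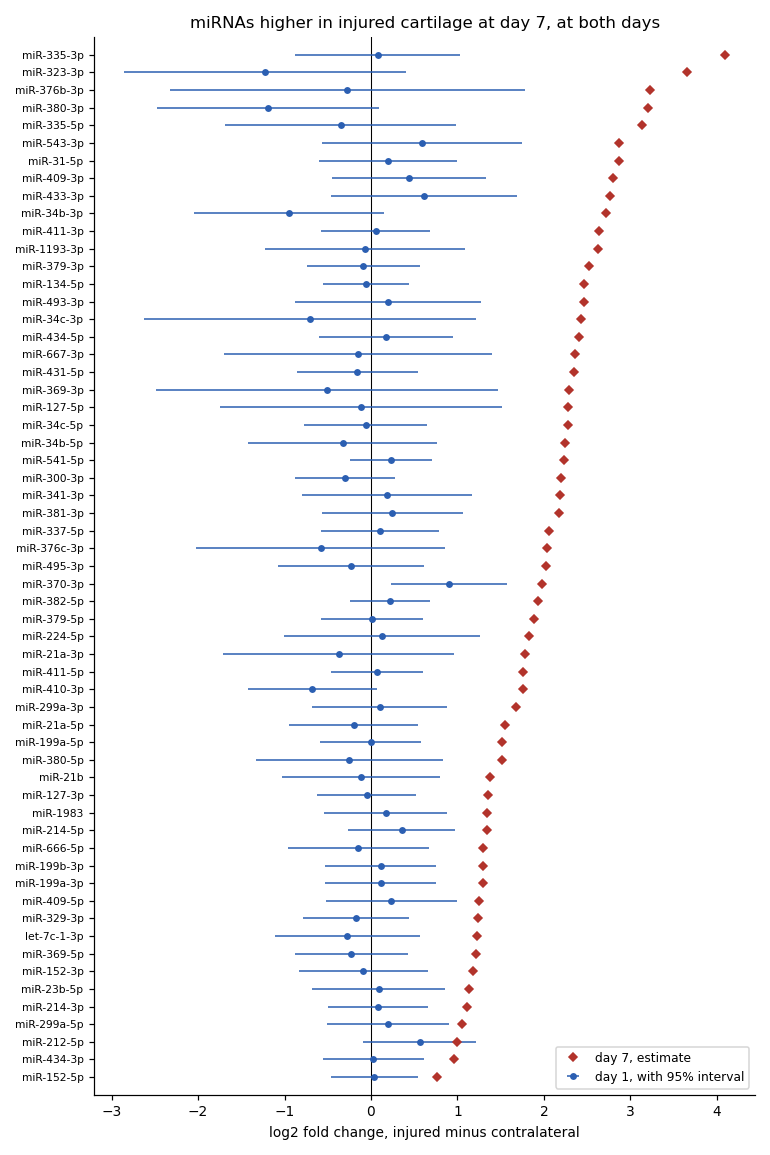
The 59 miRNAs higher in injured cartilage at day 7, ordered by that estimate (red diamonds), with their day 1 log2 fold change (blue points) and its 95% interval (lines), both as injured minus contralateral. The blue points scatter about 0, and 58 of the 59 day 1 intervals end to the left of the red diamond. The 59 were chosen by their day 7 estimates, which are drawn without their own intervals.

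Across all 428 miRNAs the log2 fold changes at day 1 and day 7 had a Pearson r of -0.02 and a Spearman rho of 0.03. This is a description across miRNAs measured in the same libraries, which are not independent. The median absolute log2 fold change was 0.21 at day 1 and 0.42 at day 7.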

How the data were processed

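Small RNA libraries (18) were made and sequenced by the authors, who trimmed reads with Trim Galore 0.6.6, aligned them to mature miRBase sequences with Bowtie 1.3.0 and counted them with SAMtools 1.12 in the nf-core small RNA pipeline (genome setting GRCm38). FastQC 0.11.9 served for quality control, and the submitters' processing notes also name DESeq2. The deposited table holds raw counts per mature miRNA and library, whose rows were matched to the samples by library number. In 7 sets 15 tested miRNAs carry identical counts and cannot be told apart.

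From these counts, miRNAs were kept by edgeR's filterByExpr (minimum count 10, minimum total 15), scaled by TMM and fitted over all 18 libraries and 5 group means with limma-voom (edgeR 4.0.16, limma 3.58.1, R 4.3.3), with Benjamini-Hochberg adjustment over 428 miRNAs. DESeq2 1.42.0 and edgeR's quasi-likelihood test were alternatives. The study blocked on mouse pool, which the labels do not give, so no block was used. Intervals are at 95% with about 19.6 degrees of freedom. Summed lists were compared by 2-sided exact permutation tests. Figures used Python 3.11 and matplotlib. Scripts were tested on simulated data.

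The named miRNAs were the 10 most abundant, the 5 smallest p-values in each direction at day 1, the 3 largest changes in each direction among abundant miRNAs, members of 7 lists, the 10 smallest p-values at day 7 and the abundant miRNAs without overlap. Others were chosen after their values were seen. The members and lists were chosen with earlier results of these data known. Depth ranged from 946624 to 3172635 counts per day 1 library, and counting error is largest for miRNAs under 10 CPM.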

Additional observations from a re-analysis of the deposited data

Results flagged for a closer look

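The change with injury differed between day 7 and day 1 for 29 miRNAs by the interaction term of the limma-voom fit (adjusted p under 0.05 with Benjamini-Hochberg adjustment), each with a larger rise at day 7. For those described here the difference is given as the day 7 minus the day 1 log2 fold change, with 3 libraries in each of the 4 groups. Within the imprinted cluster of chromosome 12 it was 2.52 for miR-134-5p, 2.50 for miR-300-3p, 2.01 for miR-541-5p, 2.58 for miR-411-3p, 2.61 for miR-379-3p, 4.399 for miR-380-3p, 1.71 for miR-382-5p and 2.51 for miR-431-5p. miR-380-3p had 0 counts in injured replicate 2 at day 1, so that its difference rests on very few reads. Outside the cluster the difference was 4.02 for miR-335-3p, 2.67 for miR-31-5p, 1.52 for miR-199a-5p and 1.75 for miR-21a-5p. The miR-34b/c hairpins, which are p53 targets on chromosome 9, gave 3.66 for miR-34b-3p, 2.57 for miR-34b-5p and 2.33 for miR-34c-5p. Adjusted p-values of these 15 ranged from 0.000114 to 0.0325. Among them miR-34b-3p, miR-34b-5p and miR-31-5p were also scarce, averaging 6.58, 7.31 and 5.82 CPM over the 6 day 1 libraries. For miR-34b-3p the log2 fold change was -0.94 (SE 0.53) at day 1 and 2.72 at day 7.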

How the results depend on the processing

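At day 1 no miRNA was called under any alternative run: DESeq2 size factors, library totals, the muscle list left out, either other low-count filter, sample weights, DESeq2, edgeR's quasi-likelihood test, the 6 day 1 libraries alone, the muscle covariate, or any library left out. The number at an unadjusted p under 0.05 was 8 as reported, 35 with every miRNA of at least 1 count, 25 with sample weights, 1 with at least 10 counts in every library, and 4 to 16 with 1 library left out (4 without contralateral replicate 3, 16 without injured replicate 2). Abundant miRNAs bounded within 2-fold numbered 59, and 116 with the abundance minimum at 100 CPM and 17 at 10000 CPM, which change the number of miRNAs considered. Leaving out 1 library gave 44 to 52, with 47 without injured replicate 2. Those bounded within 1.5-fold numbered 17, but 5 with library totals only, 27 with sample weights and 25 with the muscle covariate, itself summed from some abundant miRNAs. The number was 7 to 12 with 1 library left out. Day 7 calls numbered 63, but 38 with at least 10 counts in every library, where fewer miRNAs were tested, and 48 to 70 with 1 library left out. Differences between the days numbered 29, with 24 to 32 on leaving out 1 library. With library totals only, the median log2 fold change of all miRNAs shifted to -0.13 and 32.7% lay above 0, and with every miRNA of at least 1 count it was 0.24 and 64.0%.

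On leaving out 1 library, ratios of summed lists ranged from 0.863 to 1.01 for cartilage, 0.834 to 1.59 for skeletal muscle, 0.922 to 1.16 for erythroid, 0.801 to 0.926 for leukocyte, 0.944 to 1.23 for vascular, 0.798 to 0.921 for NF-kB, 0.871 to 1.19 for CREB, 0.859 to 0.938 for p53 and hypoxia, 0.9495 to 1.16 for load-responsive, 0.942 to 1.19 for matrix, 0.975 to 1.27 for miR-199 and miR-214, and 0.993 to 1.11 for the 12qF1 list. No paired analysis was possible because the labels do not say which libraries came from the same mice, and the replicate numbers follow accession order.

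With 3 libraries a group and totals from 946624 to 3172635 counts, the largest change inside an abundant miRNA's unadjusted 95% interval had a median of 1.72-fold and reached 3.52-fold. After adjustment over 428 miRNAs larger changes could be missed, and the estimate of 0.80 (log2) for miR-151-3p was not called. Its unadjusted 95% interval reached 3.09-fold, and intervals adjusted over all 428 are wider. With Bonferroni adjustment 36 of the 75 abundant miRNAs remained within 3-fold. For miRNAs under 10 CPM the median margin around the estimate was 2.19-fold.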
